A study of Mus musculus with 48 samples.

Results

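The genes described here are 7 mouse members of the Ly6 family, Ly6i, Ly6c2, Ly6c1, Ly6a, Ly6e, Ly6d and Ly6g, read across monocytes, macrophages, neutrophils, T cells, NK cells and endothelial cells of GL261 gliomas. They are 7 of the 20300 genes counted in the whole-tumor mix and 7 of the 14363 counted in CD11b+ cells. They were selected on measured values, since earlier results from these same libraries had brought the family forward, with Ly6i in macrophages and monocytes already known to differ between the groups. Values of Ly6i in those cells are therefore given as a description with no p-value.

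Ly6 proteins are small, cysteine-rich proteins of the cell surface, most of them held in the membrane by a lipid (GPI) anchor, and many are switched on by interferon. Several serve as staining markers in mouse immunology: Ly6C for inflammatory monocytes, Ly6G for neutrophils, and Sca-1, the product of Ly6a, for blood stem cells, activated lymphocytes and vessel walls. In brain tumors, antibodies to Ly6C are commonly used to tell newly recruited monocytes from macrophages that have settled in the tissue.

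GL261 is a mouse glioma line, and its cells carried an shRNA, delivered by a retrovirus, that was either a negative control (shNC) or directed at Selp (shSELP), the gene of P-selectin. They were placed in the striatum of male C57BL/6 mice 6 weeks old, so both groups share the host strain, the tumor line and a viral construct. The labels put collection at day 16 after inoculation for the mix and day 21 for CD11b+ cells, the methods give day 17, and the labels and the methods name kit versions 2 and 3 of the droplet chemistry. The methods describe a pool of 3 brains per group, with CD11b+ cells, CD45+ cells lacking CD11b and the remaining cells combined in equal parts, and leave unstated whether each library of a group had its own pool.

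The mix holds 2 shNC and 2 shSELP libraries, called shNC 1, shNC 2, shSELP 1 and shSELP 2 here, and CD11b+ cells hold 1 library per group, so values there carry no test. A description line of 7 of the CD11b+ shSELP entries names the negative control, and the directions given for CD11b+ cells rest on the titles and genotypes instead. The deposited values are counts of unique molecular identifiers (UMIs), 1 per captured RNA molecule. The mix libraries held 22945972, 22626413, 17398121 and 25589350 UMIs, with medians of 9547, 8051, 6164 and 9879.5 UMIs per kept cell. The CD11b+ libraries held 12628177 UMIs in shNC and 11445676 in shSELP, with medians of 4209 and 3737. Any pair of libraries shared at most 3 cell barcodes.

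Cells were assigned by gates, each a minimum number of detected markers from a list with no Ly6 gene in it, such as 5 of 8 for macrophages and 3 of 8 for monocytes, with limits on markers of other cells. Of 8726 kept cells of the mix, 6850 fell in 1 gate and 19 met more than 1. Macrophages numbered 642 and 469 in shNC and 368 and 548 in shSELP, monocytes 91 and 114 against 69 and 90, and T cells 429 and 433 against 399 and 444. NK cells numbered 35 and 84 against 30 and 56, endothelial cells 16 and 28 against 311 and 62, and neutrophils 6 and 7 against 22 and 14. With 1 more marker required per gate, the net loss of cells was 9.47% of macrophages, 18.4% of monocytes and 2.87% of T cells. It was 20.5% of NK cells, 8.39% of endothelial cells and 2 of 49 neutrophils, whose gate grew from 22 to 23 cells in shSELP 1. In every library of the mix, 8 of 8 endothelial markers were detected in the endothelial gate and 8 of 8 NK markers in the NK gate. The gates were set by these same markers, so this is no check of the labels. Neutrophils of shNC 2 stand apart, since the summed level of the 8 neutrophil markers in that gate, all 8 detected and S100a8 the most abundant, was 252737 and 28680 CPM in shNC and 273441 and 192883 CPM in shSELP. In the monocyte gate that sum was 477 and 3540 CPM in shNC, with 4 and 7 of 8 detected, and 271 and 444 CPM in shSELP, with 4 and 5 detected. S100a8 led in shNC 2 and Il1r2 in the others, and Retnlg was at 0 in all 4.

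Levels are given in CPM, the UMIs of a gene per 1000000 UMIs summed over the cells of a gate in 1 library. The lowest level that counting allows is taken as 3 UMIs, and counting intervals and floors cover counting error only. The targeted gene, Selp, which encodes an adhesion protein stored in platelets and endothelial cells, gave 1 and 0 UMIs in the tumor-cell gate of the shNC libraries and 0 and 0 in shSELP. The floors there were 0.918 and 1.34 CPM in shNC and 4.75 and 7.17 CPM in shSELP, so its knockdown in tumor cells was not detectable at this depth. In endothelial cells, which did not carry the hairpin, Selp gave 8 and 12 UMIs in shNC (88.1 and 66.7 CPM) and 0 and 7 in shSELP (0 and 16.7 CPM), although shSELP 1 held the most endothelial cells.

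The comparison of shSELP with shNC tumors asks how silencing Selp in the tumor cells relates to gene activity in the cells around them. Its p-values measure only the spread between these libraries, which may be technical. Statements that the groups overlap or do not overlap describe the order of the libraries only. With so few libraries per group, a gene can separate the groups by chance. The share of all genes that do so is not given, so separation alone is not read as a response.

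Ly6i is a close relative of the Ly6C genes and is known from myeloid cells. In macrophages its level was 194 and 284 CPM in shNC and 641 and 765 CPM in shSELP, with means of 239 ± 63.4 and 703 ± 87.5 (SD, n = 2 each). Both shSELP libraries stood above both shNC libraries, and the log2 fold change was 1.62, or 1.39 to 1.89 with 1 library left out. A Ly6i UMI was found in 50.8% and 65.2% of shNC macrophages and in 77.7% and 82.8% of shSELP macrophages, at median depths of 11577, 12605, 10723 and 16576 UMIs per cell. After every cell was thinned to 2000 UMIs, these shares were 22.5% and 36.4% against 57.5% and 60.1%. Tumor cells, taken as the background of free RNA, had shares of 2.56%, 3.10%, 5% and 9.68% at median depths of 17117, 17355, 16928 and 13358 UMIs, and 0%, 0.775%, 0% and 0% once thinned.

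In monocytes the Ly6i level was 648 and 764 CPM in shNC and 734 and 1259 CPM in shSELP. The groups overlapped there, with shSELP 1 between both shNC libraries and shSELP 2 above all the others, and the log2 fold change was 0.50. It was 0.05 without shSELP 2 and 0.82 without shSELP 1. The 8 macrophage markers in the monocyte gate summed to 5131 and 4172 CPM in shNC and 4154 and 7143 CPM in shSELP. Apoe led throughout, shSELP 2 stood highest, and the part of these markers in the Ly6i level was not tested. The share of thinned monocytes with a Ly6i UMI was 44.4% and 44.2% in shNC and 48.5% and 59.1% in shSELP. The difference between the log2 fold changes in monocytes and in macrophages was -1.17, given without a test because the same values chose the gene. Cells with markers of both types, 3 or more of each, had Ly6i at 976 and 1068 CPM in shNC and 1698 and 1548 CPM in shSELP, so there too the groups did not overlap. Microglia had 62.9 and 61.3 CPM against 124 and 129 CPM.

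Outside the myeloid cells Ly6i was sparse, and single cells held much of it. T cells had 3 and 17 Ly6i UMIs in shNC and 17 and 64 in shSELP, or 0.936 and 5.15 against 7.06 and 15.4 CPM. Up to 23 of the 64 UMIs lay in 1 cell. The groups did not overlap, but only shSELP 2 was above the highest level in tumor cells, which ran from 1.53 to 7.17 CPM. The log2 fold change was 1.94 (SE 0.56, edgeR adjusted p = 0.321), and it turned to -0.69 when clusters of cells replaced the gates and to -0.50 with clusters from 20 components. Without shNC 2 it was 3.61 (edgeR adjusted p = 0.0161) and without shSELP 1 it was 2.29 (edgeR adjusted p = 0.0175), and it also passed with a replicate block, over a range of adjusted p from 0.00109 to 0.885 across the alternatives. NK cells had 0, 1, 0 and 6 Ly6i UMIs. Endothelial cells had 0, 26, 16 and 5, of which 25 in shNC 2 and 14 in shSELP 1 lay in 1 cell each. Neutrophils had 0, 3, 9 and 11 Ly6i UMIs, or 0 and 207 against 161 and 219 CPM.

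Across the 6 gates of the mix, mean Ly6i levels ran from monocytes (851 CPM) through macrophages (471 CPM), neutrophils (147 CPM), endothelial cells (41.95 CPM) and T cells (7.14 CPM) to NK cells (4.67 CPM). The ranges over libraries overlapped between all 5 pairs of neighbours in that order. These orders are descriptions, and none of them was tested.

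**Figure D1:**
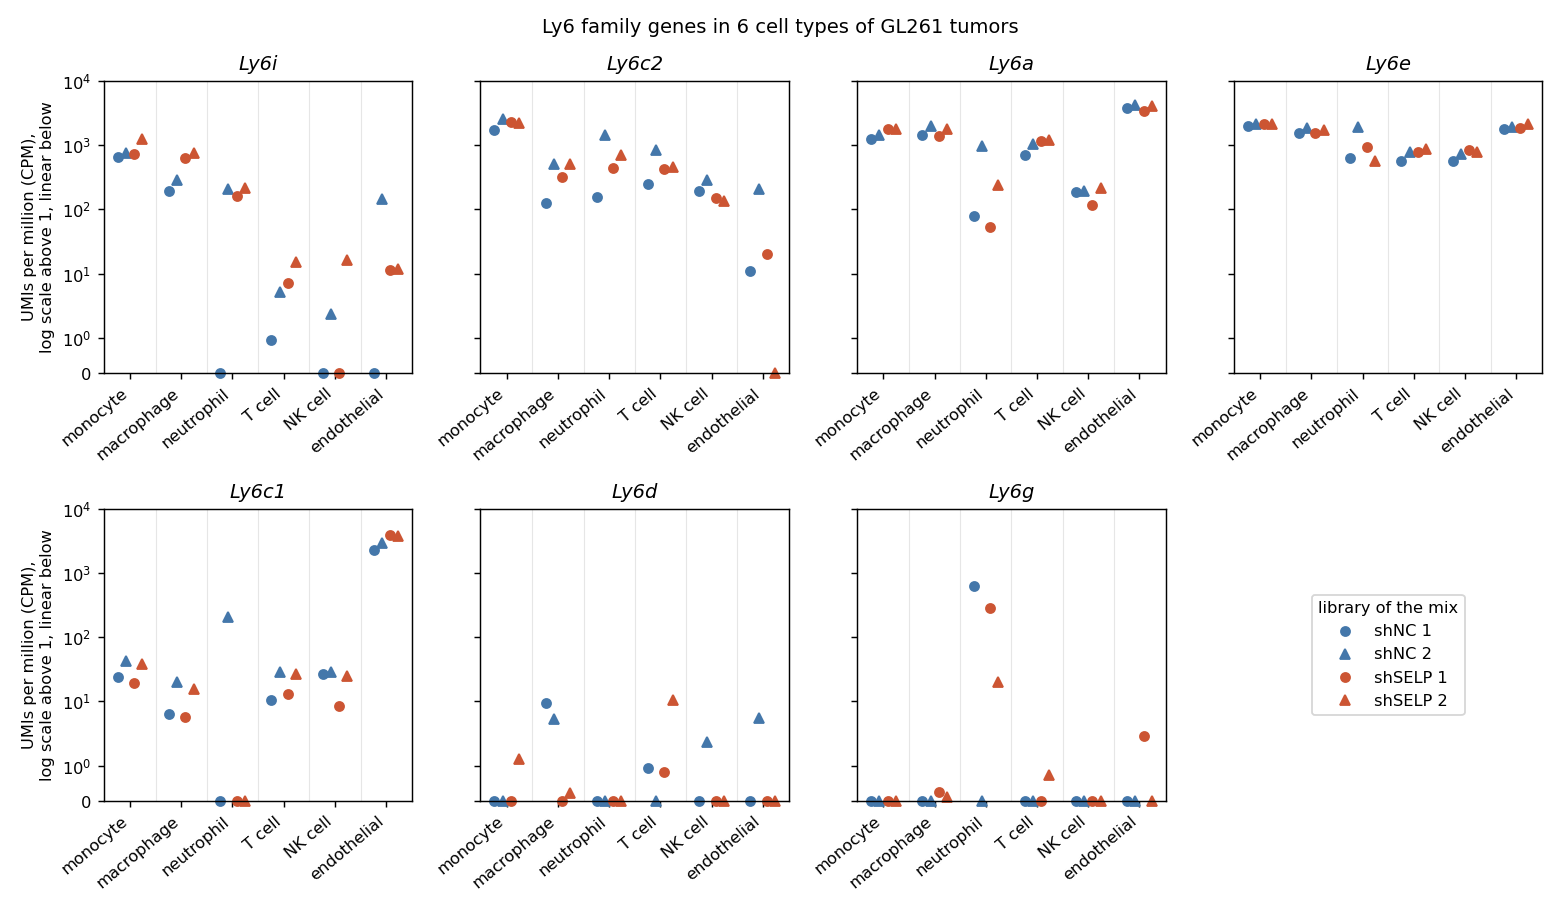
Each panel plots 1 gene, with the level in CPM of each of the 4 libraries of the mix on the vertical axis (logarithmic above 1, linear below) and the 6 gated cell types on the horizontal axis, shNC in blue and shSELP in red. Ly6i in macrophages lies between 194 and 284 CPM in shNC and between 641 and 765 CPM in shSELP, while Ly6c1 stands highest in endothelial cells and Ly6c2 in monocytes.

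Ly6c2 encodes one of the proteins that antibodies to Ly6C bind, the usual mark of inflammatory monocytes. In monocytes its level was 1717 and 2583 CPM in shNC and 2322 and 2241 CPM in shSELP. The shSELP values lay inside the shNC range, whose top is shNC 2, the library with the most neutrophil markers in this gate. The log2 fold change was 0.08 (SE 0.16, edgeR adjusted p = 0.973), and it was -0.18 without shNC 1 and 0.40 without shNC 2. The part of those markers was not tested. The other gates had mean Ly6c2 levels of 688 CPM in neutrophils, 490 CPM in T cells, 364 CPM in macrophages, 194 CPM in NK cells and 60.7 CPM in endothelial cells. The lowest monocyte library was above the highest library of each of these gates, and all further neighbours overlapped. Outside the 6 gates, plasmacytoid dendritic cells had a higher mean than monocytes, 4649 CPM over 3 libraries against 2216 CPM. Their range, 2475 to 6681 CPM, overlapped with that of monocytes. In endothelial cells 37 of the 38 Ly6c2 UMIs of shNC 2 were in 1 cell. Tumor cells had 0.918 to 2.68 CPM.

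Macrophages had Ly6c2 at 124 and 514 CPM in shNC and 315 and 504 CPM in shSELP. shNC 1 was the lowest library and shNC 2 the highest, so the groups overlapped. The log2 fold change of 0.44 (SE 0.50, edgeR adjusted p = 0.768) passed with no filter on low counts (edgeR adjusted p = 0.0167), became 1.76 without shNC 2 (edgeR adjusted p = 0.0481), and -0.24 without shNC 1, with adjusted p from 0.0167 to 0.9996 over the alternatives. The summed level of the 8 monocyte markers in the macrophage gate, led by Plac8 and with 8 of 8 detected, was 501, 637, 593 and 865 CPM, lowest where Ly6c2 was lowest, and its part in these levels was not tested. Cells with markers of both monocytes and macrophages had mean Ly6c2 levels of 1580 CPM in shNC and 2337 CPM in shSELP. There the groups did not overlap, and this set was not tested. Neutrophils had Ly6c2 at 155 and 1451 CPM in shNC and 448 and 698 CPM in shSELP, from 2, 21, 25 and 35 UMIs. The highest of these is shNC 2, the library with the low neutrophil markers, without which the range is 155 to 698 CPM, and the part of those markers was not tested.

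T cells had Ly6c2 at 247 and 829 CPM in shNC and 426 and 458 CPM in shSELP. Both shSELP libraries lay between the shNC libraries, and the log2 fold change was -0.27 (SE 0.38, edgeR adjusted p = 0.855). Its direction followed the control library kept, with -0.91 without shNC 1 (edgeR adjusted p = 0.0119) and 0.86 without shNC 2 (edgeR adjusted p = 0.00855), over a range of adjusted p from 0.00855 to 0.99995. T cells were also split by their own UMIs of Cd8a or Cd8b1, of Cd4 and of Foxp3, the defining factor of regulatory T cells. In CD8 cells Ly6c2 was at 360 and 1448 CPM in shNC and 661 and 1150 CPM in shSELP. In CD4 cells it was at 1.73 and 23.7 against 9.53 and 32.5 CPM, and in Foxp3 cells at 0 and 98.0 against 4.44 and 0 CPM. The lowest CD8 library thus had more Ly6c2 than the highest library of either other set, and the groups overlapped in all 3 sets. CD8 cells made up 53.8% and 47.1% of T cells in shNC and 59.9% and 32.2% in shSELP, and the part of these shares in the T-cell level was not tested.

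**Figure D2:**
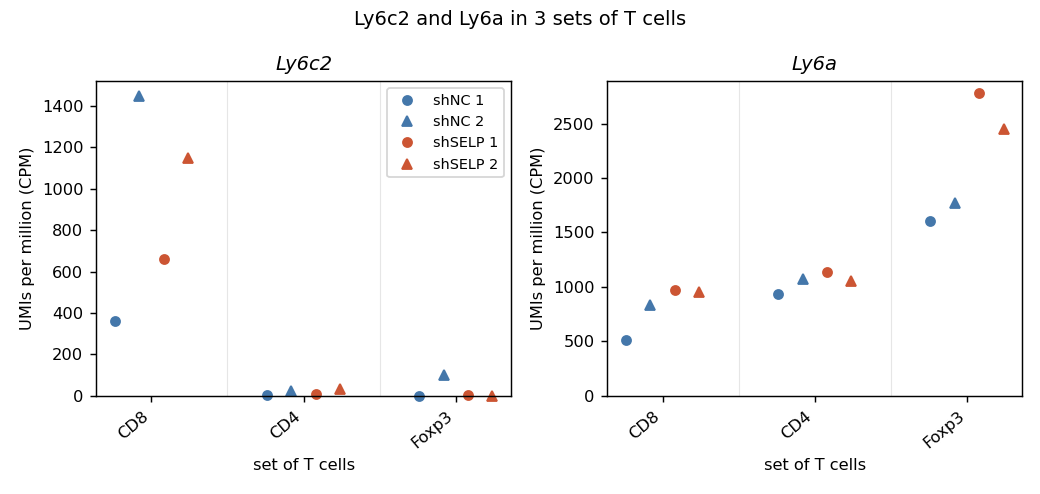
The level of Ly6c2 (left) and Ly6a (right) in CPM on the vertical axis is plotted for each library of the mix in 3 sets of T cells on the horizontal axis, shNC in blue and shSELP in red. Ly6c2 is at 360 to 1448 CPM in CD8 cells and at most 98.0 CPM in the other sets, and Ly6a is highest in Foxp3 cells.

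NK cells had Ly6c2 at 195 and 290 CPM in shNC and 153 and 136 CPM in shSELP. Both shNC libraries were above both shSELP libraries, though only 5 and 22 shNC cells and 8 and 7 shSELP cells held a Ly6c2 UMI. The shares of NK cells with one were 14.3% and 26.2% against 26.7% and 12.5%, so by shares the groups overlapped, at median depths of 2461, 3598, 3433 and 5240 UMIs and against 1.54% to 4.65% in tumor cells. Thinned to 2000 UMIs, the shares were 14.3% and 19.5% against 21.4% and 13.0%. The log2 fold change was -0.89 (SE 0.32, edgeR adjusted p = 0.425), and it passed with the replicate block (-0.93, edgeR adjusted p = 0.0499), over a range of adjusted p from 0.0499 to 0.9994. It was -0.49 without shNC 2, -0.22 with clusters in place of gates and -0.36 with clusters from 20 components.

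Ly6c1 is the neighbouring Ly6C gene and is known from endothelial cells of the brain. In the endothelial gate its level was 2245 and 2886 CPM in shNC and 3965 and 3716 CPM in shSELP. Both shSELP libraries were above both shNC libraries. The gate held 16 cells in shNC 1, under the minimum of 20 set for a test, and a fit of all 4 libraries, added after the data had been seen, gave a log2 fold change of 0.59 (SE 0.20, edgeR adjusted p = 0.299). The summed level of the 8 endothelial markers, led by Flt1 or Cldn5, was 8465 and 10298 CPM in shNC and 11351 and 11958 CPM in shSELP, so it moved with Ly6c1. Cells among the highest 5% of doublet scores were 8 of 16 and 6 of 28 in the shNC gates and 6 of 311 and 2 of 62 in shSELP. The summed level of the 8 neutrophil markers in the endothelial gate was 11.0 and 11.1 CPM in shNC and 3151 CPM in shSELP 1. In shSELP 1, 7 of 8 of these were detected, with S100a8 the most abundant. The part of any of these in the Ly6c1 levels was not tested.

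All other gates had Ly6c1 far lower. Means were 51.8 CPM in neutrophils, from 3 UMIs in 1 library, 30.9 CPM in monocytes, 22.0 CPM in NK cells, 19.5 CPM in T cells and 11.97 CPM in macrophages. The endothelial levels did not overlap with any of these, and these 5 overlapped with their neighbours. Monocytes had Ly6c1 at 24.1 and 42.1 CPM in shNC and 19.4 and 37.8 CPM in shSELP, where shNC 2 and shSELP 2 were the higher of their groups. The tumor-cell gate had Ly6c1 at 491 and 1099 CPM in shNC and 558 and 569 CPM in shSELP, more than in any of the 5 gates named in this paragraph.

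Ly6a encodes Sca-1, which rises on activated T cells and lines blood vessels. In T cells its level was 715 and 1050 CPM in shNC and 1170 and 1214 CPM in shSELP. The groups did not overlap, with shNC 1 well below the other libraries. The log2 fold change was 0.45 (SE 0.17, edgeR adjusted p = 0.449). It passed without shNC 2, at 0.76 (edgeR adjusted p = 0.0286), and did not without shNC 1, at 0.18 (edgeR adjusted p = 0.997), which bounds its range over the alternatives. Within CD8 cells Ly6a was at 509 and 832 CPM in shNC and 970 and 953 CPM in shSELP, and within Foxp3 cells at 1604 and 1770 against 2778 and 2449 CPM. The groups did not overlap in either set. In CD4 cells they did, at 936 and 1072 against 1138 and 1057 CPM. These sets were not tested, and the share of all genes whose groups separate in them is not given.

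Monocytes had Ly6a at 1233 and 1466 CPM in shNC and 1770 and 1804 CPM in shSELP. Both shSELP libraries were higher, with a log2 fold change of 0.40 (SE 0.14, edgeR adjusted p = 0.484). Macrophages had 1427 and 1975 against 1389 and 1821 CPM, where the groups overlapped. There the log2 fold change was -0.02 (SE 0.17, edgeR adjusted p = 0.975), turning to 0.20 without shNC 2 and to 0.18 without shSELP 1. NK cells had 186 and 196 against 119 and 218 CPM, with a log2 fold change of -0.15 (SE 0.32, edgeR adjusted p = 0.997) that turned to 0.13 without shSELP 1.

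The highest mean level of Ly6a among the 6 gates was in endothelial cells, at 3808 and 4226 CPM in shNC and 3422 and 4035 CPM in shSELP, where the groups overlapped. Macrophages (mean 1653 CPM) and monocytes (1568 CPM) followed and overlapped with each other. T cells (1037 CPM) lay below both without overlap, except that monocytes and T cells overlapped when 1 more marker was required for each gate. Neutrophils (335 CPM, from 1, 14, 3 and 12 UMIs) overlapped with T cells and with NK cells (180 CPM). Tumor cells had Ly6a at 1712 and 3668 CPM in shNC and 3078 and 3082 CPM in shSELP.

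Ly6e encodes a broadly present, interferon-inducible member known for blocking the entry of coronaviruses into cells. It was found in all 6 gates of every library. Monocytes had 1986 and 2168 CPM in shNC and 2140 and 2178 CPM in shSELP. Macrophages had 1551 and 1848 against 1532 and 1725 CPM, and endothelial cells 1761 and 1902 against 1885 and 2133 CPM. In each of these 3 gates the groups overlapped. T cells had Ly6e at 575 and 790 against 776 and 864 CPM, also with overlap, and NK cells at 559 and 734 against 850 and 786 CPM, where both shSELP libraries were higher. Neutrophils had 621 and 1935 against 950 and 578 CPM, from 8, 28, 53 and 29 UMIs, the highest level being again that of shNC 2.

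The log2 fold changes of Ly6e were 0.05 in monocytes (SE 0.13, edgeR adjusted p = 0.973), -0.01 in macrophages (SE 0.12, edgeR adjusted p = 0.994), 0.28 in T cells (SE 0.15, edgeR adjusted p = 0.599) and 0.25 in NK cells (SE 0.22, edgeR adjusted p = 0.997). The macrophage value changed sign with the library left out, from -0.11 to 0.10. The T-cell value ran from 0.06 without shNC 1 to 0.53 without shNC 2 and was 0.03 after thinning, and the NK-cell value ran from 0.06 without shNC 1 to 0.50 without shNC 2 and was 0.58 after thinning. The order of mean Ly6e levels was monocytes, endothelial cells, macrophages, neutrophils, T cells and NK cells. All neighbours in it overlapped, and endothelial cells came first after thinning to 2000 UMIs.

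Ly6d marks early B-lineage cells and plasmacytoid dendritic cells. Its levels were highest outside the 6 gates. They were 3446 and 6955 CPM in the plasmacytoid dendritic cells of shNC and 9453 CPM in those of shSELP 2. The plasmacytoid gate held no cell in shSELP 1. B or plasma cells had 815, 1156, 1183 and 1200 CPM. In macrophages it gave 73 and 33 UMIs in shNC and 0 and 2 in shSELP, or 9.38 and 5.37 against 0 and 0.221 CPM. Single cells made these counts, since 67 of the 73 and 30 of the 33 UMIs lay in 1 cell each.

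The edgeR test called Ly6d lower in shSELP macrophages, with a log2 fold change of -5.41 (SE 0.68, adjusted p = 0.0182). The call rests on those cells, because without cells of 10 or more Ly6d UMIs the gene no longer passed the filter on low counts. It was also not tested after thinning or with the highest 5% of doublet scores left out, and the call was lost with clusters from 20 components (-4.88) and without shSELP 2 (log2 fold change -8.49, edgeR adjusted p = 0.0965), over a range of adjusted p from 1.48e-19 to 0.0965. The summed level of the 8 B-cell markers in the macrophage gate was 27.3 and 21.5 CPM in shNC and 17.6 and 11.9 CPM in shSELP, with 8, 5, 4 and 6 of 8 detected and Ighm the most abundant. For the 6 plasmacytoid markers it was 13.4 and 16.4 against 17.4 and 11.2 CPM, with 6, 6, 5 and 5 detected and Cox6a2 or Atp1b1 leading. The part of either in the Ly6d counts was not tested. T cells had 3, 0, 2 and 44 Ly6d UMIs, of which 43 in shSELP 2 were in 1 cell.

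Ly6g, the surface mark of mouse neutrophils, had 8 and 0 UMIs in the neutrophils of shNC and 16 and 1 in those of shSELP. That is 621, 0, 287 and 19.9 CPM, and the groups overlapped. The 0 is that of shNC 2, whose neutrophil markers were low, and without that library shNC 1 stood above both shSELP libraries. All 8 UMIs of shNC 1 came from 1 cell. The other 5 gates had 4 Ly6g UMIs or fewer in every library, with 0, 0, 1 and 1 in macrophages and none in monocytes. Neutrophils, at 6 to 22 cells per library, were under the minimum for a test.

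Counted over the genes, edgeR called 85 of 10364 genes in macrophages, or 0.82%, and 1 of the 5 members read there, Ly6d. That call rests on 1 cell in each shNC library and on a filter passed through shNC alone. DESeq2 also called Ly6d, from the same sums and filter, so it adds no support. The filter on low counts kept 6 of the 7 members, Ly6g being the exception, and nothing is read from Ly6i. Leaving out shSELP 2 lowered the count of called genes to 7. In monocytes edgeR called 19 of 5297 genes, or 0.359%, and 0 of the 4 members read there, with 1 (Ly6a) at an unadjusted p under 0.05 and 0 called by DESeq2. Of all 5297 genes, 324 had such an unadjusted p. Leaving out 1 library gave 31 called genes without shNC 2 and 56 without shSELP 1.

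In T cells edgeR called 5 of 9686 genes, or 0.0516%, and 0 of 5 members, with 2 (Ly6i and Ly6a) at an unadjusted p under 0.05 and 0 called by DESeq2. Of all 9686 genes, 909 had such an unadjusted p. The count of called genes was 17 without shNC 1, 146 without shNC 2, 54 without shSELP 1 and 198 without shSELP 2. In NK cells edgeR called 17 of 3221 genes, or 0.528%, and 0 of 3 members, with 1 (Ly6c2) at an unadjusted p under 0.05 and 0 called by DESeq2. That count was 33 without shNC 1 and 32 without shSELP 1. The added fit of endothelial cells called 12 of 4827 genes, or 0.249%, and 0 of 3 members. There 1 member (Ly6c1) had an unadjusted p under 0.05, and DESeq2 was not run. Over all genes, such a p was found for 182 of 3221 in NK cells and 598 of 4827 in endothelial cells.

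Whether a gate responded differently from macrophages was tested as the difference of both log2 fold changes in 1 edgeR fit, with library as a block. For NK cells 36 of 9879 genes were called, or 0.364%, and 1 of 5 members. Ly6c2 was that member, with a difference of -1.37 (SE 0.33, edgeR adjusted p = 0.00964), its level being lower in both shSELP libraries in NK cells and overlapping in macrophages. The call was lost without shNC 1 (-0.91) and without shSELP 2 (-0.82), with 1 more marker per gate (-1.08), with clusters in place of gates (-0.81), with clusters from 20 components (-0.84) and with cells thinned to 2000 UMIs (-0.97), and adjusted p ran from 0.00392 to 1. The count of called genes was 18 without shNC 2.

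For T cells 17 of 10952 genes were called in that test, or 0.155%, and 1 of 5 members. That was Ly6d, at 9.26 (SE 0.91, edgeR adjusted p = 0.00121), which comes from the single cells with many Ly6d UMIs described above. It was not tested without them and is no measure of how T cells respond. The call was also lost without shSELP 2 (9.04, edgeR adjusted p = 0.392), with clusters in place of gates (5.04) and with clusters from 20 components (5.08), over a range from 1.97e-14 to 0.392. Ly6c2 differed by -0.76 (SE 0.20, edgeR adjusted p = 0.243), and it passed without shNC 2 (-0.86), without shSELP 1 (-1.06) and with the highest 5% of doublet scores left out (-0.77), over a range from 6.06e-05 to 0.812. The count of called genes was 82 without shNC 1, 162 without shNC 2, 101 without shSELP 1 and 10 without shSELP 2.

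For monocytes 24 of 9115 genes were called, or 0.263%, and 0 of 5 members. An unadjusted p under 0.05 was found for 3 members (Ly6d, Ly6a and Ly6c2) and for 594 of the 9115 genes. No other tool was run on differences. Ly6a differed by 0.42 (SE 0.15, edgeR adjusted p = 0.513), or 0.19 without shSELP 1 and 0.23 after thinning, and Ly6c2 by -0.59 (SE 0.27, edgeR adjusted p = 0.713). The Ly6c2 difference passed without shNC 2 (-1.33) and without shSELP 1 (-0.99998), and it was 0.08 without shNC 1, over a range of adjusted p from 3.76e-08 to 1. The count of called genes was 50 without shNC 2, 67 without shSELP 1 and 44 without shSELP 2.

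In CD11b+ cells, with 1610 and 1844 macrophages and 193 and 193 monocytes, ratios of shSELP to shNC are given, for genes other than Ly6i with 95% counting intervals, exact for Poisson counts, which hold no spread between animals. With 1 more marker required per gate, the net loss of cells was 18.6% of macrophages and 26.9% of monocytes. Ly6i in macrophages was at 97.3 CPM in shNC and 176 CPM in shSELP, from 817 and 1470 UMIs, a ratio of 1.81. In monocytes it was at 231 and 460 CPM, a ratio of 1.99. These ratios describe 1 library per group for a gene chosen on this difference. They were above 1 in both gates, also with TMM scaling, with 1 more marker and after thinning. The share of macrophages with a Ly6i UMI was 26.5% in shNC and 36.9% in shSELP, at medians of 5004.5 and 4231 UMIs, and 15.3% and 24.4% once thinned. T cells, 7 and 8 in these libraries, held no Ly6i UMI, and with 0 and 2 tumor cells no background share can be given.

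Ly6c2 in CD11b+ macrophages was at 151 CPM in shNC and 177 CPM in shSELP, a ratio of 1.17 (1.09 to 1.26). After thinning, that ratio was 1.03 (0.927 to 1.14). In CD11b+ monocytes it was at 1577 and 1930 CPM, a ratio of 1.22 (1.11 to 1.35). Ly6a was at 967 and 1024 CPM in macrophages, a ratio of 1.06 (1.03 to 1.09) that became 0.984 with TMM scaling, and at 668 and 838 CPM in monocytes, a ratio of 1.25 (1.08 to 1.46). For Ly6a, only the monocyte ratio kept its direction under each scaling. Ly6e was lower in shSELP macrophages, at 1268 and 1100 CPM (ratio 0.867, 0.843 to 0.892), and higher in shSELP monocytes, at 1286 and 1514 CPM (ratio 1.18, 1.06 to 1.31), though after thinning the monocyte ratio was 1.09 (0.939 to 1.27). Ly6c1 gave 14 and 11 UMIs in macrophages and 3 and 1 in monocytes. Ly6d and Ly6g gave at most 2 UMIs in any CD11b+ macrophage or monocyte sum, under the floor of 3.

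A wider list of 38 names of the Ly6 and uPAR family, of which 27 are in the mix table and 16 in the CD11b+ table, was counted alongside the members. The filter kept 8 of them in macrophages, 6 in monocytes, 8 in T cells and 3 in NK cells. Beyond the members these were Plaur, the receptor of urokinase, in macrophages, monocytes and T cells, Cd59a, an inhibitor of complement, in macrophages, and Ly6k and Ly6g5b in T cells. Of these 4 genes edgeR called 0 in those gates, with 2 at an unadjusted p under 0.05, Plaur in macrophages and Ly6g5b in T cells, and DESeq2 called 1, Plaur in macrophages. Over all genes, 1344 of 10364 in macrophages and 909 of 9686 in T cells had such an unadjusted p. In macrophages Plaur had a log2 fold change of 0.57 (SE 0.11, edgeR adjusted p = 0.0629). Ly6i apart, the only gene of the list that edgeR called was Ly6d in macrophages, a call that rests on 2 cells of shNC as given above and on a filter passed through shNC alone, so nothing about the family is read from it.

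Since Ly6a, Ly6e, Ly6i and the Ly6C genes are known to rise with interferon, 20 other genes that interferon induces were read beside them. In monocytes 15 of 20 had lower and 5 higher levels in shSELP, with a median log2 fold change of -0.28 against 0.00 over all genes, or -0.47 without shNC 1 and -0.12 without shNC 2. In edgeR 7 of the 20 had an unadjusted p under 0.05, against 324 of all 5297 genes. The test called 1 of the list, Cxcl10, which encodes an attractant of T cells. Its level was 5287 and 5692 CPM in shNC and 3459 and 3393 CPM in shSELP. Both shSELP libraries were lower, with a log2 fold change of -0.68 (SE 0.12, edgeR adjusted p = 0.00603), and the call was lost with clusters in place of gates (-0.61, edgeR adjusted p = 0.0827) and with the replicate block (-0.68, edgeR adjusted p = 0.111), over a range from 3.37e-08 to 0.111. Of the 4 members read in monocytes, none of them called, Ly6a was at 0.40 and the others were between -0.15 and 0.08. No test compared the members with this list, here or in the other gates.

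In macrophages 14 of the 20 interferon-inducible genes were higher in shSELP, with a median log2 fold change of 0.19 against -0.01 over all genes. In T cells 15 of 20 were higher, with a median of 0.14 against 0.01, and in NK cells all 10 tested were higher, with a median of 0.74 against -0.01. None of the list was called by edgeR in these 3 gates, with 1, 0 and 4 genes at an unadjusted p under 0.05 and 0 called by DESeq2. Over all genes, 1344 of 10364, 909 of 9686 and 182 of 3221 had such an unadjusted p. The directions in macrophages and T cells depend on the library, since the medians were -0.09 and -0.24 without shNC 1, and that in T cells was -0.17 without shSELP 2 and -0.07 after thinning. The median was 0.04 in macrophages without shSELP 2, and 0.32 in macrophages and 0.65 in T cells without shNC 2. In NK cells it stayed above 0 but ran from 0.55 without shSELP 1 to 1.17 without shSELP 2, and it was 0.34 with clusters in place of gates, 0.18 with clusters from 20 components (10 higher, 4 lower) and 0.17 after thinning (3 of 4 higher). Among the 3 members tested in NK cells, Ly6c2 (-0.89) and Ly6a (-0.15) had the opposite sign to that list's median there, and Ly6e (0.25) had the same sign.

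In the added fit of endothelial cells, where Ly6c1 was higher in both shSELP libraries, 17 of 19 tested genes of the list were lower and 2 higher. The median log2 fold change was -0.66 against 0.02 over all genes. An unadjusted p under 0.05 was found for 8 of the 19, against 598 of all 4827 genes. Cxcl9, an interferon-induced chemokine, was called there, with a log2 fold change of -3.88 (SE 0.32, edgeR adjusted p = 0.00167), at 1057 and 1863 CPM in shNC and 91.4 and 112 CPM in shSELP. Both shSELP libraries were lower, but the shNC UMIs came from 4 of 16 and 11 of 28 cells, with 46 of 96 and 114 of 335 in 1 cell each. Macrophages had Cxcl9 at 1553 to 2321 CPM, high doublet scores were more frequent in the shNC endothelial gates as given above, and their part was not tested. No alternative was run for this fit. In the tests of a difference from macrophages, where Ly6c2 was called for NK cells and no member for monocytes, the list genes called were Cxcl10 and Ifit3 for monocytes and Cxcl9 and Oasl2 for NK cells. Cxcl10 differed by -0.68 (SE 0.13, edgeR adjusted p = 0.0110) and Ifit3 by -0.88 (SE 0.19, edgeR adjusted p = 0.0356). Both calls were lost without shNC 1 (-0.60 and -0.76) and with clusters in place of gates (-0.66 and -0.61), and that of Ifit3 also with 1 more marker per gate (-0.68) and with clusters from 20 components (-0.35), with adjusted p from 1.23e-05 to 0.212 and from 0.00275 to 0.739.

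For NK cells, where the Ly6c2 difference was negative, Cxcl9 differed by 3.57 (SE 0.46, edgeR adjusted p = 7.60e-12) and Oasl2 by 3.67 (SE 0.81, edgeR adjusted p = 0.00290). Single cells weigh on both, since 62 of the 63 Cxcl9 UMIs in shSELP 1 NK cells and 19 of the 24 Oasl2 UMIs in those of shSELP 2 lay in 1 cell. The Cxcl9 call was lost without shSELP 1 (1.17) and after thinning (2.72), with adjusted p from 4.51e-31 to 1. The Oasl2 call was lost without shNC 2 (2.03) or shSELP 2 (3.01), with 1 more marker per gate (1.99), with clusters in place of gates (0.31), with clusters from 20 components (0.24) and after thinning (2.20), with adjusted p from 0.00105 to 1.

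The genes whose levels were most like each member's were sought over 16 sums, those of 4 libraries in macrophages, monocytes, T cells and NK cells, by the Pearson correlation of log2(CPM + 10) among genes averaging 20 CPM or more. The sums share libraries and differ in depth and cell type, so these values are descriptions. For Ly6i they were Pirb (0.986), BC028528 (0.986) and Mcl1 (0.985). For Ly6c2 they were Gch1 (0.925), Ifit3 (0.922) and Ifit1 (0.920), and for Ly6c1 they were Vta1 (0.778), Max (0.754) and Tagln2 (0.750). Ly6c1 had the lowest such values of the 5 members compared. For Ly6a they were Tspan31 (0.967), Capg (0.966) and Ebi3 (0.959), and for Ly6e they were Gabarap (0.986), AA467197 (0.984) and Ralgds (0.981). Ly6d and Ly6g had means under 20 CPM and were left out.

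All 7 genes lie on mouse chromosome 15 within 397 kb, from 74762056 to 75159126 of GRCm38 (GENCODE M21). In the order of position they are Ly6d, Ly6e, Ly6i, Ly6a, Ly6c1, Ly6c2 and Ly6g, with Ly6e and Ly6g on the plus strand and the other 5 on the minus strand. Ly6i spans 74979534 to 74983430, beside Ly6a at 74994877 to 74998031. Ly6c1 spans 75044018 to 75048830 and Ly6c2 75108158 to 75111970. Ly6c1 and Ly6c2, neighbours in this order, had their highest mean levels among the 6 gates in endothelial cells and in monocytes.

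**Figure D3:**
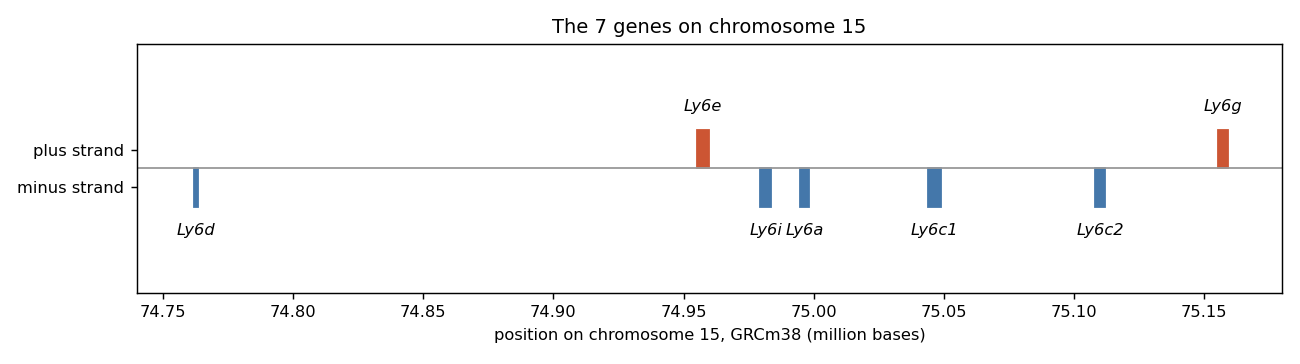
The 7 genes are drawn to scale along chromosome 15 (GRCm38, Mb on the horizontal axis), above the line for the plus strand and below it for the minus strand. They span 397 kb, with Ly6i next to Ly6a and Ly6c1 next to Ly6c2.

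Alike sequences limit how well reads tell these genes apart. Of the stretches of 50 bases in its transcript, Ly6c2 shared 33.0% with another gene and Ly6c1 36.7%, of which 252 stretches were shared between this pair. Among the last 400 stretches before the 3′ end, where droplet reads gather, 22.5% of each were shared. Ly6a shared 10.0%, Ly6i 4.97% and Ly6g 0.448% of their stretches, and Ly6e and Ly6d none. In the levels, Ly6c1 went from at most 42.1 CPM in monocytes to 2245 CPM or more in endothelial cells, and Ly6c2 from at most 211 CPM in endothelial cells to 1717 CPM or more in monocytes. Reads from shared stretches may still have been lost or assigned to the wrong gene, and their part in the Ly6c1 and Ly6c2 levels was not tested.

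Promoter sequences of 300 bases, 250 before and 50 after the gene's start, were matched for 3 of the 7 members, Ly6c1, Ly6c2 and Ly6g, in a RefSeq table of build GRCm38.p6. The promoters of Ly6c2 and Ly6c1 are shown because these close relatives had their highest levels in different cells. Each is printed 5′ to 3′ on the minus strand, Ly6c2 at chr15:75111922-75112221 and Ly6c1 at chr15:75048788-75049087, and capitals mark the longest run that both hold, of 20 bases.
Ly6c2: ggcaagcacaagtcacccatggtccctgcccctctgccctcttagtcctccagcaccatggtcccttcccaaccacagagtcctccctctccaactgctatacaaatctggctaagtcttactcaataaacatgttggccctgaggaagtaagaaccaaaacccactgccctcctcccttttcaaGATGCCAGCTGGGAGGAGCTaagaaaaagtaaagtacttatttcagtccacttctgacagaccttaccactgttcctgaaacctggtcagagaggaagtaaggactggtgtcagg
Ly6c1: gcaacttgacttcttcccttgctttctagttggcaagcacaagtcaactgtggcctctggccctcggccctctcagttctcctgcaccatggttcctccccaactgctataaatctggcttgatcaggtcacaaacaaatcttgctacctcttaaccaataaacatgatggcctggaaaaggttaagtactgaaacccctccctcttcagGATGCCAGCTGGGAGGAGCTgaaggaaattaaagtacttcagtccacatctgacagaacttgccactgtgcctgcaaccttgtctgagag
Compared end to end over the 300 bases, the windows differed by 122 edits, an identity of 59.3%. The shared run starts at base 186 of Ly6c2 and base 211 of Ly6c1, so part of the edits comes from this offset of the windows. The value is therefore no measure of how alike the matching parts are. The motif TTCNNNGAA, which STAT factors are known to bind, was in 8.30% of all 32851 promoters of the table, searched on both strands. It was found in none of these 3 windows, which says only that those letters are not there.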

How the data were processed

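The authors aligned reads to mm10 with Cell Ranger 1.3, per the submitters' processing notes, and deposited raw UMI counts per gene and cell for 6 libraries, each of 8 entries. A cell was kept if it had 500 genes or more and no more than 10% of its UMIs from mitochondrial genes (8726 of 9172 and 5535 of 5724 cells). The members, marker lists and other lists were chosen with earlier results of these data known. UMIs were summed per library and gate, and gates with at least 20 cells in each library of the mix were fitted in R 4.3.3 by the quasi-likelihood method of edgeR 4.0.16, after filterByExpr and TMM scaling, with a Benjamini-Hochberg threshold of 0.05, and the code was first tested on simulated data. Neutrophils and endothelial cells were left out of the tests for too few cells. Differences between gates used a gate-by-group term with library as a block. Each SE is the size of the log2 fold change divided by the square root of the F value of its edgeR test. It thus restates that test, and none is given where Ly6i was not tested. CD11b+ libraries were compared by exact counting intervals with scipy 1.17.1.

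All 7 members are named whatever their values, with the 3 genes most like each, at a mean of at least 20 CPM, and the genes of both lists called in each gate tested. The list genes called in the differences between gates and in the endothelial fit were named after their values were seen. Values were also computed with DESeq2 1.42.0, without the filter, with each library left out, with a replicate block, with 1 more marker per gate, with clusters made without Ly6 family genes (scanpy 1.11.5, 12 components in the mix, 8 in CD11b+ cells, as in the study), after thinning to 2000 UMIs, and with the top 5% of Scrublet scores left out. Chosen after seeing the data were clusters from 20 components, run before any Ly6 value was read, and, once Ly6 values had been seen, a fit of endothelial cells in all libraries, leaving out cells with 10 or more Ly6d UMIs, and all alternatives of the differences between gates. Thinning left out 158, 170, 241 and 198 cells of the mix. Python 3.11.15, numpy 2.4.6, pandas 2.3.3, matplotlib 3.10.9 and limma 3.58.1 also served. With 3 UMIs as the floor, the smallest level resolved in the 6 gates of the mix ran from 0.332 CPM in the deepest macrophage sum to 233 CPM in the shallowest neutrophil sum.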

Additional observations from a re-analysis of the deposited data

Results flagged for a closer look

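The response of Ly6c2 to shSELP differed between NK cells and macrophages by the test of the difference itself, with a log2 difference of -1.37 (SE 0.33, edgeR adjusted p = 0.00964). Its level was lower in 2 of 2 shSELP libraries than in either shNC library in NK cells. The call was lost without shNC 1 (-0.91) and without shSELP 2 (-0.82), and under 4 other alternatives, with adjusted p from 0.00392 to 1.

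The same kind of test gave Ly6d a log2 difference of 9.26 between T cells and macrophages (SE 0.91, edgeR adjusted p = 0.00121), a value that rests on 3 cells and is no measure of how these cell types respond. Ly6d passed the filter on low counts in macrophages, through the shNC libraries, and not in T cells. Of the Ly6d UMIs, 67 of 73 and 30 of 33 in the macrophages of shNC 1 and shNC 2 and 43 of 44 in the T cells of shSELP 2 came from 1 cell each. Without cells of 10 or more Ly6d UMIs the gene was not tested, and the call was lost without shSELP 2 (edgeR adjusted p = 0.392, in a range from 1.97e-14 to 0.392) and with both kinds of clusters.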

How the results depend on the processing

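Depth limits these values, since NK cells numbered 30 to 84 and monocytes 69 to 114 per library, Ly6d and Ly6g rest on few cells, and 2 libraries per group leave little to estimate spread from. With 1 library left out, the lone library of its group is assumed to vary like the other group. Of the alternative values of counts and CD11b+ ratios, 119 stayed close to the reported value, 81 moved and 1 reversed. Of those for single genes and list medians, 375 kept their direction and call or stayed close, 27 moved, 13 gained and 13 lost a call, and 39 reversed. For each change below, the cause was not tested.

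With DESeq2 the called genes numbered 5 in monocytes, 15 in T cells and 5 in NK cells, against 19, 5 and 17 with edgeR, and the macrophage log2 fold change of Ly6e was 0.000803 in place of -0.01. With no filter on low counts there were 625 called genes and 2 called members in macrophages (against 85 and 1), 49 called genes in monocytes, 40 in T cells and 47 in NK cells.

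The replicate block, which pairs libraries by the number in their labels, gave 176 called genes in macrophages, 8 in monocytes, 241 in T cells and 42 in NK cells. It called 1 member in T cells, Ly6i (edgeR adjusted p = 0.00109), and 1 in NK cells, Ly6c2 (log2 fold change -0.93, edgeR adjusted p = 0.0499), and no longer called Cxcl10 in monocytes (log2 fold change -0.68 as reported, edgeR adjusted p = 0.111). The deviations of same-numbered libraries from their group means had correlations of 0.0363 in macrophages, -0.0216 in monocytes, 0.0816 in T cells and 0.177 in NK cells.

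With 1 more marker per gate, NK cells had 5 called genes. The tests of differences from macrophages had 29 called genes for T cells and 9 for NK cells (against 17 and 36), with 0 called members for NK cells (against 1). The Ly6c1 difference in monocytes was 0.0505 and the Ly6d difference in NK cells 5.75, both opposite in sign to the reported values.

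With clusters in place of gates, called genes numbered 27 in macrophages, 4 in monocytes, 3 in T cells and 0 in NK cells, and for differences 2 in T cells and 15 in NK cells, with 0 called members in both. Log2 fold changes with the opposite sign were those of Ly6a (0.0209) and Ly6e (0.0387) in macrophages, Ly6i in T cells (-0.69) and the Ly6e difference in monocytes (-0.0520). With clusters from 20 components, called genes numbered 6 in macrophages, with 0 called members, 9 in monocytes, 3 in T cells and 2 in NK cells, and for differences 2 in T cells and 14 in NK cells, with 0 called members in both. Ly6i in T cells was at -0.50. The Ly6i differences from macrophages, given without a test, were -2.09 in T cells and -0.19 in NK cells with clusters, -1.86 in T cells with 20 components and -0.00657 in T cells after thinning, all opposite in sign to the values with gates.

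With cells thinned to 2000 UMIs, macrophages had 7 called genes and 0 called members, and NK cells 1 called gene. Differences had 15 called genes for monocytes (against 24), 6 for T cells and 7 for NK cells, with 0 called members for T and NK cells. Signs were opposite for Ly6c1 (0.0124), Ly6a (0.0103) and Ly6e (0.0275) in macrophages, Ly6c1 in T cells (-0.0693) and the Ly6e difference in T cells (-0.00481). In CD11b+ macrophages the Ly6c2 ratio was 1.03 after thinning, and with TMM scaling the ratio was 0.984 for Ly6a, reversed, and 0.806 for Ly6e. In the order of the gates by level, exchanges under thinning or 1 more marker were among gates whose ranges over libraries overlap.

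With the highest 5% of doublet scores left out, macrophages had 0 called members, and differences had 44 called genes for monocytes and 66 for T cells, with 2 called members for T cells and the Ly6e difference in monocytes at -0.0335. Without cells of 10 or more Ly6d UMIs, macrophages had 0 called members, the difference in T cells had 1 called gene and 0 called members, and the Ly6e difference in monocytes was -0.00135.

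With 1 library left out, macrophages had 7 to 86 called genes and 0 to 2 called members, and log2 fold changes from -0.24 to 1.76 for Ly6c2, -1.17 to 0.87 for Ly6c1, -0.25 to 0.20 for Ly6a and -0.11 to 0.10 for Ly6e. Monocytes had 25 to 56 called genes, with Ly6c2 from -0.18 to 0.40, Ly6c1 from -0.82 to 0.33 and Ly6e from -0.00361 to 0.11. T cells had 17 to 198 called genes and 0 to 3 called members, with Ly6c2 from -0.91 to 0.86 and Ly6c1 from -0.55 to 1.01. NK cells had 23 to 33 called genes, with Ly6a from -0.76 to 0.13. The monocyte differences had 27 to 67 called genes and 0 to 1 called members, with Ly6c2 from -1.33 to 0.0836, Ly6c1 from -0.57 to 0.33 and Ly6e from -0.0788 to 0.0850. The T-cell differences had 10 to 162 called genes and 0 to 2 called members. The NK-cell differences had 18 to 37 called genes and 0 to 1 called members, with Ly6c1 from -1.36 to 0.0551, Ly6a from -0.53 to 0.0824 and Ly6d from -1.04 to 5.54. The untested Ly6i differences ran from -0.23 to 1.72 in T cells and from -6.59 to 6.12 in NK cells, changing sign in both.

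The planned tests of neutrophils and endothelial cells, their differences from macrophages and their alternatives were not run, because at least 1 library had under 20 of these cells. Ly6d gave no value after thinning or without cells of 10 or more Ly6d UMIs, and with doublet scores it gave a value only for the T-cell difference, because the filter on low counts dropped it.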

Other observations

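Plasmacytoid dendritic cells, whose gate held 0 cells in shSELP 1 and 1 with 1 more marker per gate, held other Ly6 transcripts than Ly6d as well. Their Ly6c2 level was 2475 and 4791 CPM in shNC and 6681 CPM in shSELP 2. Their Ly6a level ran from 3662 to 4368 CPM over these 3 libraries, and Ly6e from 1869 to 2874 CPM. B or plasma cells had Ly6a at 1762 to 2507 CPM and Ly6c2 at 269 to 1075 CPM. Dendritic cells of the other gate had Ly6a at 740 to 1260 CPM and Ly6i at 25.2 to 132 CPM. Microglia had Ly6e at 1788 to 1990 CPM, Ly6a at 620 to 1149 CPM and Ly6c2 at 49.1 to 84.5 CPM. These gates lie outside the 6 compared and were not tested.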
